A study of Mus musculus with 4 samples.

Results

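Interferon-stimulated genes are the genes that a cell switches on after an interferon binds its receptor. A list of 43 such genes, given by symbol, was followed here through single-cell RNA libraries of limb bone marrow. Of the 43, 41 were found among the 32285 genes of the files, and Mx1 and Mx2 were not analysed here. Cells negative for CD45 and Ter119 in the sort, DAPI-negative and positive for Calcein-AM, had been sorted from C57BL/6 mice at postnatal day 12, either control mice or Prx1-cre;Mettl3-fl/fl mutants, and put through the 10x Genomics droplet method, which counts transcripts by unique molecular identifiers (UMIs). Prx1-cre acts in limb mesenchyme, so the deletion of Mettl3, the catalytic subunit of the m6A RNA methylation writer, is directed at stromal, bone and cartilage cells and not at blood or endothelium. There were 2 control and 2 mutant libraries, and the controls' alleles are given only as control. The labels name 3 control and 3 mutant mice as sorted but not which mice went into which library, and the second mutant library carries only the word mutant. A p-value thus reflects how these libraries spread and may not reflect mice. The spread of each gene was drawn toward that of all genes, and in some fits, named below, it was set wholly by all genes together.

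Type I interferons signal through the receptor Ifnar1 and Ifnar2 and the kinases Jak1 and Tyk2 to a complex that includes Stat2 and Irf9 and binds the interferon-stimulated response element (ISRE). Type II interferon signals through Ifngr1 and Ifngr2, acts at the gamma-activated site and induces Irf1 and the guanylate-binding proteins. The products block virus entry, sense foreign RNA, or mark proteins with Isg15, and many are also made at a low tonic level without infection.

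Because the response is read through short promoter words, the promoters of members from several families are shown first. In windows of 300 bases, from 250 before to 50 after the RefSeq start (mm10), the letters GAAANNGAAA on either strand were present for 17 of the 32 members that have a window, or 53.1%, against 3.99% of all 27025 genes. The letters TTCNNNGAA, those of a gamma-activated site, were present for 8 of 32 members, 25.0%, against 9.55% of all genes. Each stretch below is 70 bases on the strand of the gene, with the matched letters in capitals, and overlapping matches are merged. A match is a description of letters and not evidence of binding.
Isg15: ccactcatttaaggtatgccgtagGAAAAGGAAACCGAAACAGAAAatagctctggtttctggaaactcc
Rsad2: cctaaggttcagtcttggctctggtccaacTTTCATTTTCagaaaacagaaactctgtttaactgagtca
Ifit1: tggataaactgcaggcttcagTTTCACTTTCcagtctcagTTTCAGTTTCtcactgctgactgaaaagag
Ifit3: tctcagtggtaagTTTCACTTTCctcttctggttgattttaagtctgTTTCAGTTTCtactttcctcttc
Gbp7: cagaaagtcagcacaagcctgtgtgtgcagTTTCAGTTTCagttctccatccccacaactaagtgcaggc
Gbp2: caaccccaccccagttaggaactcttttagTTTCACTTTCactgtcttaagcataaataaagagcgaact
Bst2: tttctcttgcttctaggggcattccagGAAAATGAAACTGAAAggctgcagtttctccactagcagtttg
Irgm1: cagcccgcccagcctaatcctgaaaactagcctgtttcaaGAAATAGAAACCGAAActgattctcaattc
The stretch of Isg15, the ubiquitin-like modifier, lies at chr4:156200851-156200920, minus strand, and holds 3 overlapping matches. For Rsad2, the enzyme viperin, it lies at chr12:26456533-26456602, minus strand. For Ifit1, which binds viral RNA, and its relative Ifit3 it lies at chr19:34640764-34640833, plus strand, and at chr19:34583360-34583429, plus strand, with 2 matches each. The guanylate-binding proteins Gbp7 and Gbp2 have theirs at chr3:142530253-142530322, plus strand, and at chr3:142620574-142620643, plus strand. Bst2 (tetherin), which holds budding virus at the membrane, has its stretch at chr8:71537560-71537629, minus strand, and the GTPase Irgm1 at chr11:48871421-48871490, minus strand. Ifit3b, a near copy of Ifit3, holds the same 70 bases at chr19:34607756-34607825, plus strand. Reads of this pair, and of Gbp2, Gbp3 and Gbp7, may be split uncertainly between related genes. Promoter letters do not show this, and it was not tested.

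The cells analysed had 1000 UMIs or more, 500 genes or more and no more than 10% of UMIs from mitochondria. They numbered 5808 and 3635 in the controls (1 and 2) and 2628 and 4587 in the mutants (1 and 2), with medians of 10186 to 24080 UMIs. Pairs of libraries shared 2 to 10 barcodes. Cells were sorted into classes by markers that include no interferon gene, needing at least 3 markers on and a lead of 1.5 times over the next class. Stromal cells, the Cxcl12-rich Lepr-positive cells of the marrow niche, numbered 1028, 49, 28 and 24 in control 1, control 2, mutant 1 and mutant 2. Bone cells numbered 229, 39, 1371 and 1071 in the same order. Endothelial cells, 30, 558, 48 and 958, and erythroid cells, 3491, 2525, 93 and 898, also differed widely between libraries, although the sort was meant to leave blood cells out. The second library of each genotype was thus far richer in endothelium than the first. The mutant stromal cells were also less typical of their class: a median of 4 and 5 of the 8 stromal markers were on, against 8 and 8 in the controls, and 28.6% and 20.8% of them sat exactly at the 3 required. Mettl3 stood at 11.5 and 12.9 CPM (UMIs of the gene scaled to a common total of 1000000 per class and library) in control mesenchyme (stromal, bone, cartilage and fibroblast cells together) and at 3.29 and 6.00 in mutant mesenchyme, a log2 difference of -1.11 (SE 0.33, adjusted p = 0.0435, edgeR's quasi-likelihood test with Benjamini-Hochberg adjustment, used for every adjusted p below). That call was lost without any 1 library (adjusted p = 0.1 to 0.419). The 3′ tags need not lie in the deleted part, so they check the labels only loosely. In endothelium Mettl3 stood at 28.6, 19.5, 18.1 and 18.2 CPM.

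In the control libraries the interferon-stimulated genes were expressed far more strongly in stromal than in bone cells. The 38 members other than the abundant Ifitm3, Bst2 and Ly6e summed to 934 and 846 CPM in stromal cells of control 1 and control 2, and to 108 and 124 CPM in bone cells. Only endothelium was higher, at 1334 and 1279 CPM among the classes with 20 or more cells in every library, and erythroid cells stood between, at 353 and 364 CPM. Free RNA, read from barcodes of 10 to 100 UMIs, held these genes at 391 and 361 CPM, above the bone level and below the stromal level. Within bone, the progenitor-like cells (at least 2 of Col12a1, Olfml2b, Tnn, Omd and Tnc on, Bglap off) stood at 289 and 142 CPM. The mature osteoblasts (Bglap on) stood at 69.5 and 117 CPM, while cartilage cells gave 204 and 177 CPM. The progenitor-like values rest on 52 and 5 cells with 262 and 11 UMIs of these members, and 1 cell of control 1, rich in Rsad2, held 111 UMIs counted over all members.

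Tested gene by gene between stromal and bone cells of the same control libraries, 27 of 28 members were higher in stromal cells and 0 were lower, where 25.7% of the 11259 genes tested were higher and 25.3% were lower. In this fit the spread was set wholly by all genes together, so its small p-values do not measure a gene's own spread between libraries. The members' median log2 difference was 2.43, against 0.07 over all genes. It remained 2.43 with the members absent from bone, Zbp1 and Ifi44, set at their bounds. Those bounds, 4.66 and 5.71, lie above the median, so it could not have moved and its staying is no check. Scaling to library totals moved the median of all genes to 0.96 and that of the members to 3.31, with 28 of 28 higher.

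**Figure D1:**
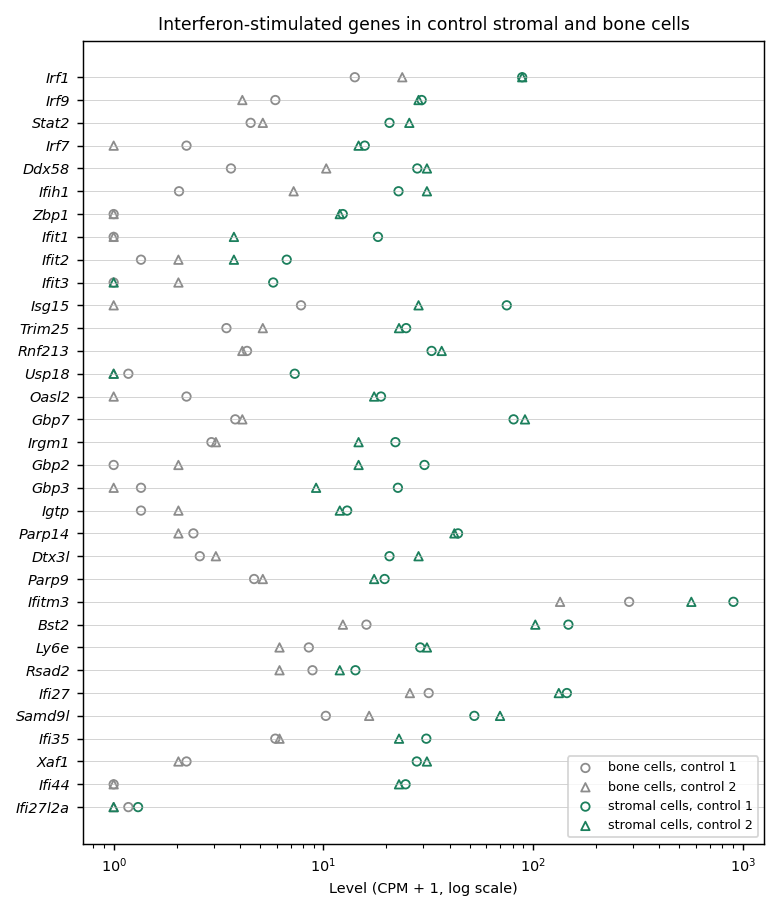
Level of the 33 members with at least 50 UMIs in mesenchyme, in stromal cells (green) and bone cells (grey) of control 1 (circles) and control 2 (triangles), as CPM + 1 on a log scale. Gbp7, Parp14, Zbp1 and Ifi44 have green points far to the right of the grey ones, whereas the points of Rsad2 lie close together.

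The transcription factors of the list shared this pattern. Irf1, an early transcription factor, was at 87.8 and 87.9 CPM in control stromal cells and at 13.1 and 22.8 CPM in bone cells, 1.63 higher on the log2 scale (SE 0.25, adjusted p = 3.15e-10). Irf7, Irf9 and Stat2 were higher by 2.89, 1.73 and 1.61. Of 14 tested genes of a list of receptors and JAK-STAT proteins, 9 were higher in stromal cells, including Ifnar1, Ifngr1 and Ifngr2, and 2 were lower, Socs1, a feedback inhibitor, and the kinase Jak2.

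Among the GTPases the contrast was wide. Gbp7 stood at 79.8 and 90.6 CPM in stromal cells and at 2.80 and 3.11 CPM in bone cells, 3.94 higher on the log2 scale (SE 0.33, adjusted p = 1.06e-30). Gbp2, at 29.4 and 13.7 against 0 and 1.04 CPM, Gbp3, at 21.7 and 8.24 against 0.350 and 0, and Igtp, at 12 and 11.0 against 0.350 and 1.04, were also higher. Irgm1, at 21.1 and 13.7 against 1.93 and 2.07 CPM, completed the 5 GTPases of the list, all of which passed the test. Parp14, an ADP-ribosyltransferase, was at 42.9 and 41.2 against 1.40 and 1.04 CPM, 4.08 higher (SE 0.44, adjusted p = 1.29e-19), and its relatives Parp9 and the E3 ligase partner Dtx3l were higher by 1.39 and 2.75. Parp9 and Dtx3l overlap on opposite strands, and the sources used here do not say how counting used strand.

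RNA and DNA sensors followed. Ddx58 (RIG-I) stood at 27.1 and 30.2 against 2.63 and 9.33 CPM, and Ifih1 (MDA5) at 21.8 and 30.2 against 1.05 and 6.22 CPM. Zbp1, a sensor of Z-form nucleic acids, was at 11.4 and 11.0 CPM in stromal cells and had no UMI in bone cells of either control, which makes it at least 25.3-fold higher against a floor of 3 UMIs over both. Ifi44, likewise without a UMI in control bone cells and at 23.7 and 22 CPM in stromal cells, was at least 52.5-fold higher on the same floor. Of a further list of 15 tested sensing and relay genes, 8 were higher and 0 lower, with Samhd1, a nucleotide hydrolase that limits viruses, 4.87 higher.

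Isg15 stood at 74.0 and 27.5 CPM in stromal cells and at 6.83 and 0 CPM in bone cells, 2.69 higher (SE 0.32, adjusted p = 1.27e-15). The ubiquitin ligases Trim25 and Rnf213 were higher by 2.22 and 2.41. Bst2 was at 147 and 102 against 15.1 and 11.4 CPM (2.37 higher, adjusted p = 3.42e-21), and Ifitm3, which blocks virus entry from endosomes, at 903 and 568 against 287 and 134 CPM (0.96 higher). The one member tested that did not pass was Rsad2, at 13.2 and 11.0 against 7.88 and 5.18 CPM (-0.10, SE 0.37, adjusted p = 0.845). Of the 45 Rsad2 UMIs in control 1 bone cells, 44 came from a single progenitor-like cell, which also held 26 of the 39 Isg15 UMIs there and UMIs of 12 members. A list of other interferon-induced genes gave 31 higher and 1 lower of 36 tested, the lower one being Ifitm2. The list was chosen with earlier results of these data known and adds no independent support.

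Some members were nearly silent in mesenchyme. Of the 41, 8 had fewer than 50 UMIs over the mesenchyme of the 4 libraries: Ubd had 2, Oas1a and Oas2 had 3 each, Oasl1 6, Ifit3b 10, Trim30a 31, Cmpk2 34 and Dhx58 43. Trim30a was an endothelial transcript here, at 57.3, 57.8, 51.4 and 31.6 CPM in control 1, control 2, mutant 1 and mutant 2, and Cmpk2, a mitochondrial nucleotide kinase beside Rsad2 in the genome, was at 22.7, 24.8, 17.3 and 27.7 CPM in erythroid cells. Ifi27l2a was also outside the pattern: 50 of its 53 UMIs in control 1 mesenchyme came from 4 fibroblast cells, a class with no cell in control 2 or mutant 2.

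Set against the controls, the mutant mesenchyme as a whole held less of most members. Of 34 members tested, 19 fell and 1 rose, where 12.2% of the 13992 genes tested fell and 13.3% rose. The members' median log2 difference was -1.82, against 0.01 over all genes. Without control 1, which supplied most of the control stromal cells, 8 members fell, and with each other library left out in turn 15 to 25 fell.

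Gbp7 was at 42.7 and 23.9 CPM in control 1 and control 2 and at 0.533 and 2.24 CPM in mutant 1 and mutant 2, a log2 difference of -4.44 (SE 0.57, adjusted p = 0.00177). Parp14 went from 22.9 and 10.3 CPM to 0.595 and 0.942 CPM (-4.07, SE 0.48, adjusted p = 0.00125). In both genes the lowest control was many times the highest mutant. Irf1 was at 52.4 and 36.1 CPM in controls and at 10.7 and 13.0 CPM in mutants (-1.54, SE 0.22, adjusted p = 0.00297), and Isg15 was at 41.7 and 13.6 CPM and then at 5.83 and 4.36 CPM (-1.97, SE 0.30, adjusted p = 0.00338). The groups did not overlap for either, but the Isg15 call was lost when control 1 was left out (-1.0, adjusted p = 0.182), and likewise for mutant 2 (-1.75, adjusted p = 0.0557).

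By role, 2 of 4 transcription factors fell (Irf1 and Irf7), with Irf9 at -0.84 and Stat2 at -1.11 not passing. All 3 of the sensors with 50 UMIs fell, Ddx58 by 2.22, Ifih1 by 2.65 and Zbp1 by 3.93, as did the complete Parp9, Parp14 and Dtx3l group. Gbp2, Gbp3 and Gbp7 fell, and Igtp (-1.82, adjusted p = 0.0781) and Irgm1 (-0.87, adjusted p = 0.156) did not pass. None of the 3 tested IFIT genes passed: Ifit1 had 113, 1, 27 and 12 UMIs in control 1, control 2, mutant 1 and mutant 2 (-2.29, SE 0.72, adjusted p = 0.0537), and Ifit2 and Ifit3 were at -0.37 and -1.24. In stromal cells of control 1 the 112 Ifit1 UMIs lay in 65 of 1028 cells, while all 9 UMIs of mutant 2 lay in 1 cell. Oasl2, Rnf213, Xaf1, Ifi44, Ifi35, Ifi27 and Rsad2 completed the members that fell. Samd9l (-0.78, adjusted p = 0.059), Trim25 (-0.38), Cmpk2, Dhx58 and Ifi27l2a did not pass, and the other 7 members had too few UMIs to test.

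The membrane proteins differed from the rest. Ifitm3 was the one member that rose, at 606 and 217 CPM in the controls, against 554 and 435 CPM in the mutants (0.81, SE 0.23, adjusted p = 0.0393). Its groups overlapped, and the call was lost when control 2 (0.10, adjusted p = 0.891), mutant 1 (0.36, adjusted p = 0.751) or mutant 2 (1.0, adjusted p = 0.224) was left out. It was also lost with the cells holding neutrophil RNA, described below for bone, left out (0.81, adjusted p = 0.0531). Bst2, at 84.7, 31.0, 23.0 and 36.4 CPM, and Ly6e, at 19.9, 11.6, 19.9 and 17.5 CPM, did not pass (adjusted p = 0.332 and 0.0782).

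Outside the members, 22 of 41 tested other interferon-induced genes fell and 1 rose, with Slfn5 (-5.22), the GTPase Iigp1 (-5.68) and Ifi47 (-5.29) having the smallest p. In the JAK-STAT list 3 of 16 fell, among them the feedback inhibitor Socs3 and the receptor chain Ifngr2, and in the sensing list 4 of 17 fell, among them Samhd1, Irf5 and Zc3hav1.

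**Figure D2:**
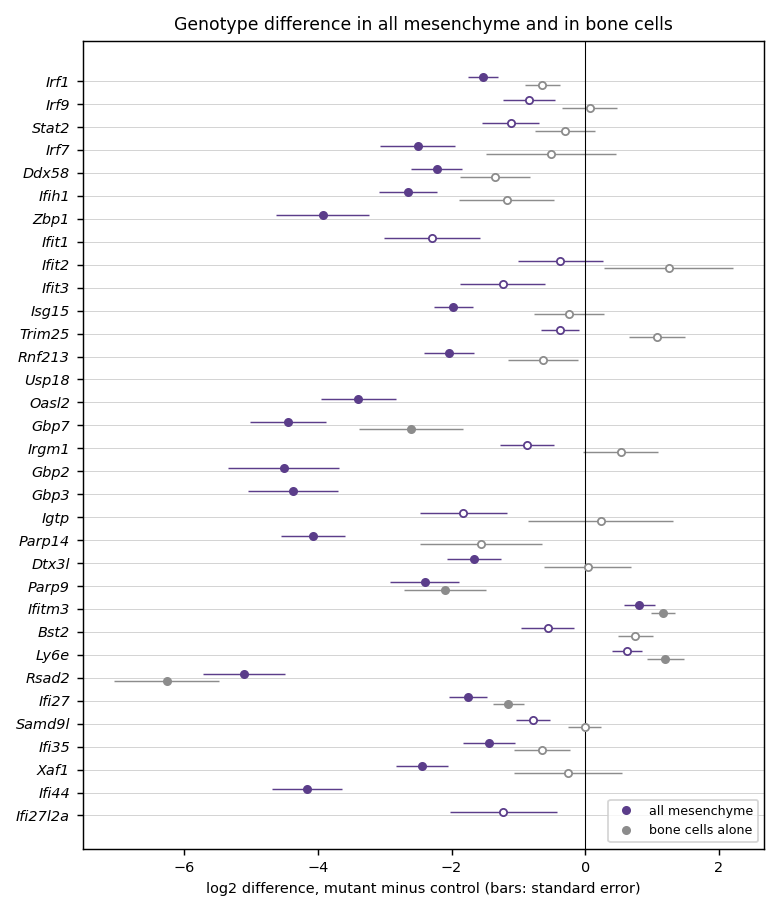
Log2 difference between mutant and control libraries for each member, in all mesenchyme (purple) and in bone cells alone (grey). Bars are standard errors and filled points have adjusted p below 0.05; the filled purple points lie left of zero apart from Ifitm3, and most grey points lie nearer to zero and are open.

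The make-up of the mesenchyme differed between genotypes at the same time. Stromal cells supplied 51.8% and 23.5% of mesenchymal UMIs in the controls and 0.874% and 0.689% in the mutants, while bone cells went from 45.5% and 62.3% to 97.3% and 95.9%. Of the 19 members that fell in mesenchyme, 18 (94.7%) were among the 27 that were higher in stromal than in bone cells of controls (of those 27, 66.7%). Because 27 of the 28 members tested there were higher, and all 19 were tested there, an overlap of about this size was fixed in advance. It does not tell which members fell, and both comparisons share the control libraries.

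The effects of class mix and of within-class level were computed separately for the 33 members with at least 50 UMIs. Class levels were averaged over the libraries of a genotype if each had the cells needed for a test. Otherwise the UMIs of its libraries were pooled. In the controls this pooling applied to cartilage and fibroblast cells and to every bone subtype except mature osteoblasts. The pooled control level of progenitor-like cells was thus set mostly by control 1, with 907363 UMIs over all genes against 77481 in control 2. With control levels kept in every class and the mutant class mix put in, the median log2 difference of CPM + 1 was -1.16, and with the control mix kept and mutant levels put in it was -0.63. Over 13988 genes the same medians were -0.29 and -0.15. The class mix alone lowered 31 of 33 members and within-class levels alone lowered 25, and the mix gave the larger fall for 26. Summed over the 38 members without Ifitm3, Bst2 and Ly6e, the level was 413 CPM in controls and 96.6 CPM in mutants, with 190 CPM for the mix alone and 258 CPM for the within-class levels alone. Over all 41 members it was 892 CPM in controls and 639 CPM in mutants. There the mix alone gave 621 CPM and the within-class levels alone gave 899 CPM, no fall. The 2 exceptions for the mix were Rsad2 and Ifi27l2a. In control 1 bone cells 44 Rsad2 UMIs lay in 1 cell and 1 in the rest, although 18 stromal cells of that library also held Rsad2. Most Ifi27l2a UMIs of control 1 mesenchyme lay in 4 fibroblast cells. The within-class values rest on 28 and 24 mutant stromal cells, and without mutant 2 their median was -1.23 and without mutant 1 it was -0.21. The mix values rest in large part on control progenitor-like cells, a class with 6.11% of the control mix and 45.4% of the mutant mix. Those cells held 262 and 11 UMIs of the 38 members in control 1 and control 2. A single one of them in control 1 held 111 UMIs over all members.

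**Figure D3:**
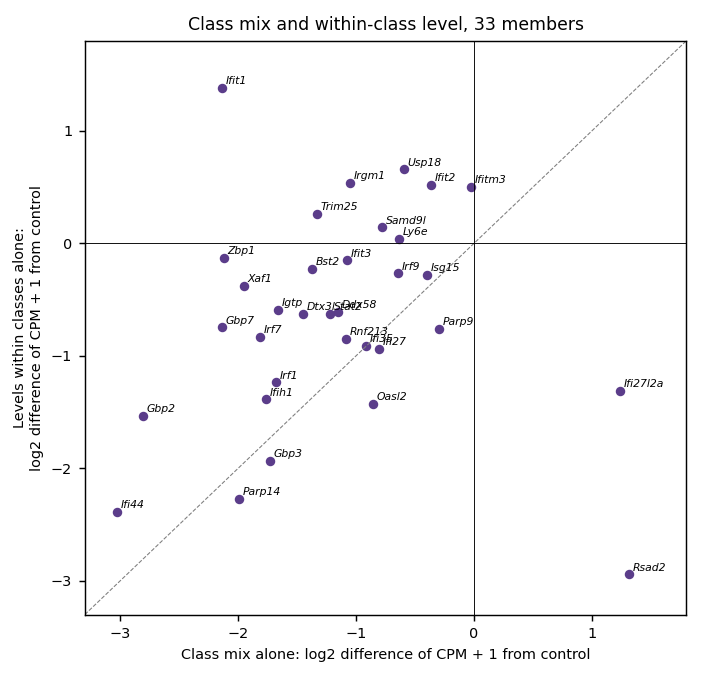
Log2 difference of CPM + 1 from the control level for each of 33 members when the class mix alone is that of the mutants (horizontal axis) and when the levels within classes alone are (vertical axis); on the dashed line both are equal. Most points, 26 of 33, have the larger fall from the mix, with Rsad2 and Ifi27l2a at the right.

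Within stromal cells 9 members had enough UMIs to test and 0 passed, where 3.74% of the 5715 genes tested were lower and 4.34% higher. An unadjusted p below 0.05 was found for 4 of the 9, DESeq2 also called 0, and the median was -0.94. Irf1 stood at 87.8 and 87.9 CPM in the controls, against 21.5 and 39.9 CPM in the mutants (-1.53, SE 0.40, adjusted p = 0.0579). Parp14 stood at 42.9 and 41.2 CPM and then at 0 and 11.4 CPM (-3.18, SE 0.87, adjusted p = 0.0654). For both genes the groups did not overlap, but on few UMIs in the mutants. The 0 of Parp14 in mutant 1 allows up to 10.8 CPM (3 UMIs, counting error only), and its 11.4 CPM in mutant 2 is 2 UMIs. Ifi27, a small mitochondrial protein, was at 144 and 132 against 57.4 and 85.5 CPM, and Bst2 at 147 and 102 against 68.2 and 85.5 CPM. Others did not separate: Gbp7 was at 79.8, 90.6, 10.8 and 91.2 CPM and Isg15 at 74.0, 27.5, 50.2 and 39.9 CPM in control 1, control 2, mutant 1 and mutant 2. Summed over the 38 members the stromal level was 934 and 846 CPM in the controls, against 334 and 735 CPM in the mutants. Outside the members, 4 of 16 tested other interferon-induced genes were lower in mutant stromal cells and 0 higher, among them Slfn5 (-1.60, adjusted p = 0.0172). Of 6 tested sensing genes 1 was lower, Samhd1 (-1.17, adjusted p = 0.0176), and of 11 in the JAK-STAT list 0 passed.

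Leaving out mutant 2 gave 4 lower members in stromal cells, and a looser gate of 2 markers gave 8. The 8 neutrophil markers summed to 8.31, 35.7, 68.2 and 6952 CPM in the stromal cells, and 5 of the 24 of mutant 2 had over 1% of their UMIs from them. Those 5 cells held 10 of the 129 UMIs of the 38 members there, and without them 19 cells were left, under the 20 needed, so their part in the result was not tested. All 4 dendritic markers were at 0 in stromal cells of every library. In stromal cells the stromal markers themselves were lower in mutants, as given above.

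Within bone cells most members were at low levels in both genotypes. Of 24 tested, 4 fell and 2 rose, where 8.49% of the 12727 genes tested fell and 11.4% rose, and the median was -0.28 against 0.04 over all genes. Leaving out at least 1 library ended 5 of the 6 calls, and Rsad2, the sixth, kept its call without control 2, mutant 1 or mutant 2 but was not tested without control 1, where no member was called lower.

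Ifi27 was at 30.8 and 24.9 CPM in control bone cells and at 12.1 and 18.1 CPM in mutant ones (-1.15, SE 0.24, adjusted p = 0.00415), with every bone subtype of mutant 1 and mutant 2 below that of control 1. Leaving out control 1 (-0.82, adjusted p = 0.238) ended the call, as did leaving out mutant 1 (-0.95, adjusted p = 0.0582). Parp9 was at 3.68 and 4.15 against 0.806 and 1.39 CPM (-2.09, SE 0.61, adjusted p = 0.0284), and Gbp7 at 2.80 and 3.11 against 0.226 and 1.51 CPM (-2.61, SE 0.77, adjusted p = 0.0296). Neither passed when any 1 of the 4 libraries was left out, the largest adjusted p being 0.290 for Parp9 without control 1 and 0.540 for Gbp7 without mutant 1.

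Rsad2 was at 7.88 and 5.18 CPM in control bone cells and at 0.0644 and 0.123 CPM in mutant ones (-6.26, SE 0.79, adjusted p = 0.000134). With the single Rsad2-rich cell of control 1 left out, it fell under the count filter and was no longer tested, and 3 members fell and 3 rose. Isg15 in bone, at 6.83, 0, 4.35 and 3.97 CPM, went from -0.25 to 1.17 with that cell out, and neither value passed. In mesenchyme Rsad2 still fell without it (-4.77, adjusted p = 0.0027).

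Ifitm3 rose in bone cells, from 287 and 134 CPM to 544 and 448 CPM (1.16, SE 0.18, adjusted p = 0.000665), and Ly6e, a membrane protein of the Ly6 family, from 7.53 and 5.18 CPM to 17.1 and 17.1 CPM (1.19, SE 0.28, adjusted p = 0.00818). Mutant libraries were above both controls for each gene. Ifitm3 did not pass without control 1 (1.83, adjusted p = 0.0522), control 2 (0.60, adjusted p = 0.347) or mutant 1 (0.78, adjusted p = 0.303), nor did Ly6e without control 1 (1.65, adjusted p = 0.123), control 2 (0.98, adjusted p = 0.0996) or mutant 1 (1.01, adjusted p = 0.119). Bst2, at 15.1 and 11.4 against 21.6 and 36.6 CPM, just missed (0.75, SE 0.26, adjusted p = 0.055).

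The bone class itself held other subtypes in the mutants: progenitor-like cells supplied 7.23% and 5.0% of mesenchymal UMIs in controls and 47.0% and 43.9% in mutants. In progenitor-like cells Ifitm3 stood at 646 and 297 CPM in the controls, against 713 and 621 CPM in the mutants, and Ly6e at 14.3 and 0 against 26.8 and 25.0 CPM. Control 2 had 5 such cells, so the subtype was not tested. In mature osteoblasts, 11 members were tested, 1 fell and 2 rose, against 3.61% and 5.98% of 9775 genes. Ifitm3 rose there from 165 and 83.2 to 357 and 290 CPM (1.40, SE 0.19, adjusted p = 0.00387) and Bst2 from 11.1 and 8.16 to 26.4 and 37.1 CPM (1.55, SE 0.31, adjusted p = 0.0188), while Ly6e was at 3.89, 8.16, 4.93 and 5.65 CPM (-0.04, adjusted p = 0.998). Ifi27 fell from 27.8 and 24.5 to 10.8 and 13.4 CPM (-1.16, SE 0.28, adjusted p = 0.0365). Leaving out control 2 ended all 3 calls, at adjusted p = 0.240 for Ifitm3, 0.0853 for Bst2 and 0.0726 for Ifi27. The osteocyte-like cells, 4 and 1 in the controls, gave 226 and 176 CPM of Ifitm3 in the mutants.

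In the other lists bone cells had Ifnar1 (0.84), Irf8 (2.13), Samhd1 (0.79), Lgals3bp (2.30) and Ifitm2 (0.60) higher in mutants and no gene lower. Neutrophil markers summed to 5.78 and 7.25 CPM in control bone cells and to 463 and 1069 CPM in mutant ones, and 12 and 44 mutant bone cells had over 1% of their UMIs from them. Those cells held 35 of 2115 and 100 of 2540 UMIs of the 38 members, and with them left out no count of bone members moved by over 1.5 times. In neutrophils themselves Ifitm3 stood at 132, 403, 331 and 582 CPM.

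The genotype change of Bst2 was larger in bone than in endothelial cells, with a log2 difference of 1.29 between the changes (SE 0.37, adjusted p = 0.0403), and smaller in stromal than in bone cells by 1.54 (-1.54, SE 0.42, adjusted p = 0.00889). The first was lost without any 1 library (adjusted p = 0.0861 to 0.210). Of 35 members in the bone and endothelial comparison Rsad2 was the only other to pass (-6.20, SE 0.90, adjusted p = 2.51e-05, and -4.19 with adjusted p = 0.0876 without the single cell), where 2.09% of 12824 genes were lower and 1.38% higher. Of 32 members between stromal and bone cells only Bst2 passed, against 2.42% lower and 2.43% higher of 12157 genes. That difference was not refitted with a library left out or under any other alternative. Between stromal and endothelial cells 0 of 18 passed (3 with an unadjusted p below 0.05), against 0.968% and 0.744% of 7128 genes, by the same edgeR test; DESeq2 was not run for these differences.

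Endothelial cells, which Prx1-cre does not target, held one member that separated the genotypes widely. Ubd encodes FAT10, a ubiquitin-like modifier that sends proteins to the proteasome. It stood at 235 and 270 CPM in controls and at 0 and 10.5 CPM in mutants (-4.83, SE 0.27, adjusted p = 9.44e-66). In the endothelial fit the spread was set wholly by all genes together, so this p-value does not measure the spread of Ubd itself between libraries. A UMI of it was present in 8 of 30 and 345 of 558 control cells and in 0 of 48 and 45 of 958 mutant cells. The 0 of mutant 1 allows up to 9.06 CPM (3 UMIs, counting error only) and up to 6.25% of cells with a UMI, which does not limit the share of cells expressing the gene. In erythroid cells, of the same libraries, 0.0859%, 0.594%, 0 and 0.111% of cells held a UMI, and in bone cells none did. The call was kept on leaving out each library in turn, but DESeq2 gave adjusted p = 0.184.

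Sinusoidal cells (2 or more of Stab2, Stab1 and Flt4 on) supplied 76.3% and 93.8% of endothelial UMIs in controls and 39.4% and 78.6% in mutants. Within them Ubd was at 255 and 281 CPM in controls and at 0 and 13.0 CPM in mutants, and in the other endothelial cells at 169 and 104 against 0 and 1.42 CPM. The difference was thus present in both kinds of endothelial cell, although control 1 had 20 sinusoidal and 10 other cells and mutant 1 had 18 and 30.

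**Figure D4:**
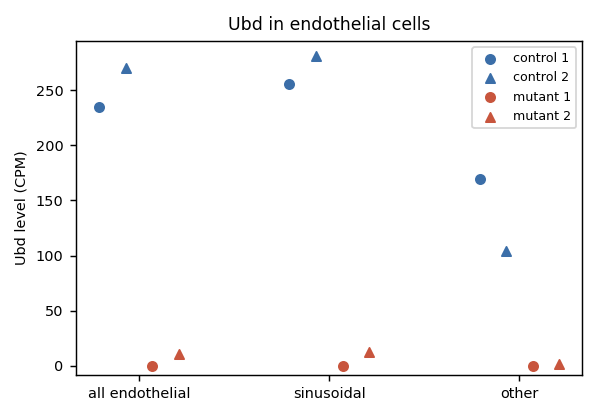
Ubd level in CPM in all endothelial cells, sinusoidal cells and the other endothelial cells, for control 1 and control 2 (blue circle and triangle) and mutant 1 and mutant 2 (red circle and triangle). All mutant points lie at 13.0 CPM or below and all control points at 104 CPM or above.

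Beside Ubd, Parp14 fell in endothelium, from 80.2 and 130 to 57.4 and 62.1 CPM (-0.95, SE 0.24, adjusted p = 0.00205). These were the 2 calls of 34 members tested, none being higher, where 3.28% of 10823 genes fell and 2.87% rose. The members' median log2 difference was -0.25, against 0.002 over all genes, and 26 of the 34 had a negative difference. The Parp14 call was lost without any 1 library (adjusted p = 0.113 to 0.959) and in DESeq2. The 38 members summed to 1334 and 1279 CPM in control and 849 and 834 CPM in mutant endothelium, with Ubd alone making 235 and 270 of the control sums. Ly6e, at 699, 833, 647 and 634 CPM, and Bst2, at 361, 291, 215 and 260 CPM, were at high levels and did not pass. In the other lists Irf8 (-1.68), Jak2 (-1.01), Iigp1 (-1.62) and Ifi47 (-1.34) fell. Endothelial cells of mutant 2 held 3031 CPM of neutrophil markers against 0 to 96.7 CPM in the other libraries, and with the 44 cells above 1% left out the number of endothelial calls stayed within 1.5 times.

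In erythroid cells 4 of 36 members rose and 0 fell, against 7.48% and 1.39% of 12573 genes. Here too the spread was set wholly by all genes together, so the p-values do not measure a gene's own spread between libraries. Isg15 was at 32.2 and 19.9 CPM in controls and at 74.3 and 52.8 CPM in mutants (1.54, SE 0.16, adjusted p = 4.61e-19), and Rsad2 at 19.6 and 17.2 CPM and then at 46.9 and 47.3 CPM (1.60, SE 0.18, adjusted p = 1.08e-16). Irf7 rose by 0.84 (adjusted p = 0.0317), and Ifi27l2a rose on 15, 2, 4 and 8 UMIs. The Isg15 call was lost without control 2 (1.10, adjusted p = 0.276), that of Irf7 without any 1 library (adjusted p = 0.420 to 1.0) and that of Ifi27l2a without control 2 or mutant 1 (adjusted p = 1.0 and 0.594).

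The erythroid stages differed between genotypes. Globin-rich cells (Hba-a1 on) supplied 18.7% and 12.6% of erythroid UMIs in controls and 56.0% and 39.9% in mutants. Within globin-rich cells Isg15 stood at 127, 115, 126 and 125 CPM in control 1, control 2, mutant 1 and mutant 2 (0.42, SE 0.22, adjusted p = 0.452), and Rsad2 at 69.2, 91.0, 77.3 and 109 CPM (0.57, adjusted p = 0.132). In globin-poor cells Isg15 was at 10.5, 6.14, 8.20 and 4.81 CPM and Rsad2 at 8.17, 6.57, 8.20 and 6.42 CPM. Both genes were thus several-fold higher in globin-rich than in globin-poor cells of every library, and the genotypes overlapped within the globin-rich cells. Of 29 members tested in globin-rich cells 0 passed (5 with an unadjusted p below 0.05), against 0.0943% lower and 4.47% higher of 9543 genes. Of 34 tested in globin-poor cells 0 passed (0 with an unadjusted p below 0.05), against 0.0498% and 1.32% of 12055 genes. DESeq2 was not run within the stages.

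**Figure D5:**
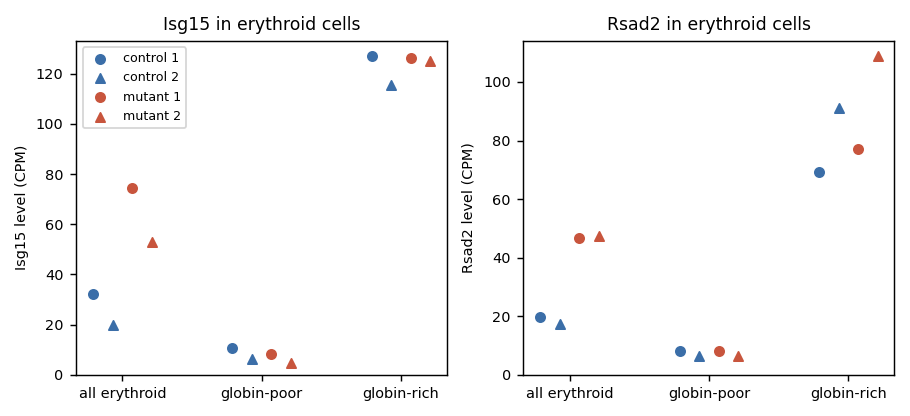
Isg15 (left) and Rsad2 (right) in CPM in all erythroid cells and in the globin-poor and globin-rich cells separately, controls in blue and mutants in red, circles for the first and triangles for the second library. The red points lie above the blue ones in the whole class, but among globin-rich cells Isg15 lies between 115 and 127 CPM in all 4 libraries.

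Neutrophil-lineage cells, 23, 31, 179 and 794, gave 12 tested members and 0 calls (0 with an unadjusted p below 0.05, and 0 by DESeq2), against 0.0197% lower and 0.808% higher of 5077 genes. The 38 members summed to 263, 591, 331 and 474 CPM there, with the ranges of the genotypes overlapping. Ifi27l2a, scarce in mesenchyme, was at 0, 67.9, 43.7 and 61.0 CPM in neutrophils and at 176, 182, 233 and 148 CPM in B cells.

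Members with and without the ISRE letters in their promoters had medians on the same side. Of those with GAAANNGAAA in the window, 14 were tested in mesenchyme, with a median of -2.10, 7 lower and 1 higher, and of those without, 13 were tested, with a median of -1.66 and 8 lower. Between stromal and bone cells of controls the medians were 2.57 (11 of 12 higher) with the letters and 2.41 (11 of 11) without. These are descriptions, and no test compared them.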

How the data were processed

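The deposited files hold counts: whole UMIs of each gene in each barcode, made by the authors with Cell Ranger against mm10, per the submitters' processing notes, which give version 5.0.1 for control 1 and mutant 1 and 6.1.2 for control 2 and mutant 2. Per the file headers the version was 5.0.1 for mutant 1 and 4 for the others; the conflict was not resolved. Libraries came from the 3′ kit, per the labels. The file of mutant 1 starts at 501 UMIs per barcode and the others at 1, so no free RNA was read for mutant 1. Kept cells held 46269414 to 108902217 UMIs per library.

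A marker was on at 10% or more of its 99.5th percentile CPM and at least 50 CPM, and 16 lineage classes were scored. Cells with markers of several classes were set aside, and no doublet caller was used in the main counts. UMIs were summed per library and class and tested with edgeR 4.0.16 (R 4.3.3) by quasi-likelihood, TMM scaling, filterByExpr and the terms pair of libraries (same version in the notes) and genotype, with 1 residual degree of freedom. A class needed 20 cells in every library. An adjusted p below 0.05 over all genes was called. The spread of each gene was moderated toward that of all genes. It was set wholly by all genes in the main fits of endothelial cells, erythroid cells and both erythroid stages. The same held for the main fit of control stromal against bone cells. Differences between classes used library, class and their interaction with genotype. Alternatives were DESeq2 1.42.0, library totals, no count filter, no pair term, other cell and gate limits, Scrublet calls at 0.8% per 1000 cells (scanpy 1.11.5) and each library left out.

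Values in every library and full statistics are given for only part of the members, mostly those with at least 50 mesenchymal UMIs. Some members that passed are given by name alone. For each pathway list, up to 3 genes with the smallest p are named. Members and lists were chosen with earlier results of these data known. Sinusoidal and globin splits, the single-cell and neutrophil-RNA alternatives were added after seeing the data. The fit was tested on simulated counts. Some genes of the pathway lists are counted but not reported here by name.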

Additional observations from a re-analysis of the deposited data

Results flagged for a closer look

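The genotype change differed between cell classes for 2 members when the difference itself was tested with edgeR's quasi-likelihood test and Benjamini-Hochberg adjustment. Bst2 changed more in bone than in endothelial cells, the log2 changes differing by 1.29 (SE 0.37, adjusted p = 0.0403), with bone cells higher in both mutant libraries and endothelial cells lower in both. Between stromal and bone cells its change differed by -1.54 (SE 0.42, adjusted p = 0.00889), the stromal level being lower in both mutants. This stromal difference was fitted once and not under the alternatives. Rsad2 changed by -6.20 more in bone than in endothelial cells (SE 0.90, adjusted p = 2.51e-05), and 44 of the 45 control 1 UMIs behind this value came from 1 cell.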

How the results depend on the processing

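Results were recomputed under the alternatives, and of the values for single genes 591 kept their direction and side of the threshold, 108 lost the threshold, 15 gained it and 9 reversed. Not every result had every alternative. Stromal against bone cells of controls was refitted only with library totals. The difference of bone and endothelial cells was refitted with the single cell out, no library term and each library left out. The differences of stromal cells from bone and endothelial cells were fitted once. Members lower in mutant mesenchyme numbered 19, and 8 to 25 with 1 library left out. The 1 member higher there became 0 with library totals, no pair term, Scrublet, the stricter gate or neutrophil RNA out, 2 with no count filter, and 0 to 1 with 1 library left out. In bone the 4 lower became 2 with DESeq2 or no pair term and 0 to 2 with 1 library left out, and the 2 higher became 1, 4 and 1 with DESeq2, library totals and no pair term and 0 to 2 with 1 library left out. In stromal cells 0 lower became 2 with no count filter or Scrublet, 1 with no pair term, 8 with the looser gate (and 1 higher) and 0 to 4 with 1 library left out. In mature osteoblasts the 1 lower became 0 with DESeq2, Scrublet or any library left out, and the 2 higher became 1 with DESeq2 or no pair term and 0 to 2. In endothelium the 2 lower became 0 with DESeq2, 1 with no pair term and 1 to 1 with 1 library left out. In neutrophils 0 higher became 0 to 2, the 2 without control 2. In erythroid cells the 4 higher became 1 with no pair term, 0 in globin-rich and 0 in globin-poor cells, and 1 to 3. In the bone and endothelial difference the 1 lower became 0 with the single cell out and 1 to 2 with 1 library left out, and the 1 higher became 0 with no library term and 0 to 0. Scaling to library totals moved the median of all genes from 0.01 to -0.39 in mesenchyme, from 0.04 to 0.17 in bone, to -0.25 in erythroid cells and to -0.32 in neutrophils. The within-class median of -0.63 ranged from -1.23 to -0.21. Reversals: Isg15 in bone was 0.39 with DESeq2, 0.20 with the looser gate, 1.17 with the single cell out, and -0.92 to 9.29 with 1 library left out, the last against a control at 0. In mesenchyme, with 1 library left out, Bst2 ranged from -1.17 to 0.30, Ifit2 from -0.71 to 0.65 and Ifit1 from -3.35 to 0.46, each reversing without control 1. In globin-poor cells Isg15 was -0.37 and Rsad2 -0.044. The causes were not tested, apart from the single cell. The stricter gate and cell limits and the neutrophil-RNA alternative left under 20 stromal cells in mutant 2, as did the cell limits for mature osteoblasts in control 2, and osteocyte-like and progenitor-like cells were too few throughout, so these were not run. The libraries were paired by the software version in the processing notes, with no pair term as the alternative, and the labels give no replicate numbers for another pairing. Depth limits members with few UMIs, above all in the 24 to 49 stromal cells of 3 libraries.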

Other observations

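The interferons themselves were almost unread. Of 12 ligand genes, 8, 6, 7 and 2 UMIs were found over all kept cells of control 1, control 2, mutant 1 and mutant 2, among 46269414 to 108902217 UMIs per library, and none had enough to test. The limit that counts of this size allow says nothing of interferon made by cells outside the sort.

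Isg15 and Rsad2 UMIs often lay in the same cells among globin-rich erythroid cells and the stromal cells of control 1, but less so in endothelium. In globin-rich erythroid cells, Isg15 was found in 61.4% of the Rsad2-positive cells of control 1 against 27.4% of the others, in 56.9% against 24.6% in control 2, in 52.6% against 28.8% in mutant 1 and in 53.7% against 22.5% in mutant 2. The median depth of the Rsad2-positive cells was 10829 UMIs in control 1 against 14508 for the others, 11705 against 16772 in control 2, 10175 against 10698 in mutant 1 and 12682.5 against 12225 in mutant 2, so it was lower in 3 libraries and higher in mutant 2. In control 1 stromal cells 12 of 18 Rsad2-positive cells held Isg15, against 222 of 1010 others, with medians of 6950 and 5690 UMIs. Of the 4, 55, 4 and 91 Rsad2-positive endothelial cells of control 1, control 2, mutant 1 and mutant 2, 0, 9, 0 and 13 held Isg15. That was 16.4% against 9.34% of the others in control 2 and 14.3% against 9.80% in mutant 2. In bone 2 cells per library held Rsad2, of which 1, 0, 2 and 0 held Isg15. These shares are descriptions over cells of single libraries, with no test.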
